A study of Mus musculus with 4 samples.

Results

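The cells described here were 58 non-cycling cells, sorted as haematopoietic stem cells (HSC) from mouse bone marrow, whose transcripts held a high share of immediate early genes, out of 188 cells kept in the 4 libraries and out of 116 that were neither B-lymphoid nor cycling. Members were found in 3 steps. Cells with at least 1000 detected genes were kept. The 14 cells with 0.25% or more of their unique molecular identifiers (UMIs, the tags that count captured transcripts) in 7 B-lymphoid genes were set aside. Of the 174 cells left, the 58 with the highest share of UMIs in 11 cell cycle genes were also set aside. Members were the remaining cells above the pooled median share of Fos, Jun, Junb, Dusp1, Egr1 and Ier2 together, and the 58 cells at or below that median are called the rest. Of the members, 2 carried plasma cell transcripts, which goes against the HSC label for them.

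Sorted HSC of 2 genotypes were compared, the knockout that the labels write as Mat KO and wild type (WT), with 2 libraries of each. The series title places the work at small nucleolar RNAs of the imprinted Dlk1-Gtl2 locus and how they sustain long-term HSC. Single cells were picked by mouth pipette and made into libraries with a modified STRT-seq method, which primes on the poly(A) tail with a cell barcode and a UMI. The labels give no age, strain or sort gate and do not state that the replicates are different mice, so the p-values below reflect the variation among 4 libraries, part of which may be technical.

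Immediate early genes are switched on within minutes of a stimulus by transcription factors that are already present in the cell, so no new protein has to be made first. Fos, Jun and Junb encode subunits of the AP-1 transcription factor, Egr1 encodes a zinc finger transcription factor, Dusp1 a phosphatase that inactivates MAP kinases, and Ier2 a nuclear protein of the same early response. In quiescent HSC several of these genes, Egr1 among them, are known to be active, and the same genes are also known to be induced when tissue is dissociated and cells are sorted.

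The promoters of 4 genes are shown because their transcripts made up most of the selecting share (Fos, Jun) or had the smallest adjusted p among the genes that rose in the members outside the selection (Zfp36, Ppp1r15a). The sequences are the 200 bases before the RefSeq start of each gene on build GRCm38.p6, written 5′ to 3′ on the strand of the gene. Capitals mark matches, on either strand, to the full cyclic AMP response element TGACGTCA (CRE), to its first 5 bases TGACG (the CRE core, which every full CRE also contains) and to the CArG box bound by serum response factor.

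Fos, chr12:85473690-85473889, plus strand: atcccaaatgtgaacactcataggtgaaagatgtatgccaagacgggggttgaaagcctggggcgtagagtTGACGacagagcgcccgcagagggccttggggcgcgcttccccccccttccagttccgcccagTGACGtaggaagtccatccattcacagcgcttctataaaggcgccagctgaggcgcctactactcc

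Jun, chr4:95052223-95052422, minus strand: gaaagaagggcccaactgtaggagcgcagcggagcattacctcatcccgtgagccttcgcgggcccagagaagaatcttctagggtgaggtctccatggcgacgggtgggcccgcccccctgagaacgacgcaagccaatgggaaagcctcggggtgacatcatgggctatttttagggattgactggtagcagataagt

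Zfp36, chr7:28379229-28379428, minus strand: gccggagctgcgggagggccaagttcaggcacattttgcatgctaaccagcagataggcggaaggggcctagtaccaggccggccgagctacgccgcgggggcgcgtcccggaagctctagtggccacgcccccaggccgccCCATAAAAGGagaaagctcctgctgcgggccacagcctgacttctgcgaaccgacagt

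Ppp1r15a, chr7:45526269-45526468, minus strand: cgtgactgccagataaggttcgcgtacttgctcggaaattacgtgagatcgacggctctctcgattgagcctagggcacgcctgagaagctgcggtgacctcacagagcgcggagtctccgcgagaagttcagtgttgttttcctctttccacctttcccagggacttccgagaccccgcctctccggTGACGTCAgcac

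Counted from the start site, the Fos window held a CRE core at -129 and at -66. The window of Jun held none of the 4 motifs. Ppp1r15a held a full CRE at -12, and Zfp36 a CArG box at -58. A full CRE was present in 1.47% of the 32851 promoter windows of this length, a CRE core in 15.7%, a CArG box in 1.18% and the AP-1 site TGANTCA in 5.48%. Of the other genes that rose, Dusp2 and 2810013P06Rik held none of the 4 motifs and Ccnt1 a CRE core at -198, and the selecting gene Dusp1 held a full CRE at -143. A CRE core was also present in genes that fell in the members, Atf3 at -7 and Klf13 at -56, while Cdkn1a, which fell too, held none. Of early genes that did not pass, Nr4a1 held a CRE core at -69 and -40, and Fosb at -60. These matches describe letters in a window and say nothing of binding, which was not measured.

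Mat KO replicates 1 and 2 gave 14 and 10 members, and WT replicates 1 and 2 gave 19 and 15. Members held 6257 to 189500 UMIs each, with library medians of 19399 to 44565, and the rest held 2904 to 163777, with library medians of 23651 to 49793. The median UMI count was higher in members in 2 of 4 libraries (exact two-sided sign-flip test over libraries, p = 0.875), and the median number of detected genes in 3 of 4 (p = 0.25), where 4 pairs cannot give less than 0.125. With every cell thinned to 9221 UMIs, which kept 104 and left out 12 of the 116 cells, the difference in median genes was -32.9 (exact sign-flip test, p = 0.625). Meg3, the noncoding RNA of the locus in the title, gave 42.0 and 39.1 CPM (UMIs scaled to an equal library total) in the Mat KO members and 26.9 and 149 CPM in the WT members, so the genotypes overlapped and it does not check the labels. The libraries used the same barcode set, and 44 of 48 barcodes held a kept cell in all 4. Of the barcodes, 17 marked a member in 1 library only, 14 in 2, 3 in 3 and 1 in all 4.

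Cells that stood apart lay mostly outside the members. Of the rest, 9 of 58 had at least 1% of UMIs in mature granulocyte and monocyte markers (3, 3, 1 and 2 cells in Mat KO 1 and 2 and WT 1 and 2) and held 19.2% of the UMIs of the rest, against 0 of 58 members. A count of 0 allows a share of up to 5.17% (3 in 58). That bound takes the cells of all libraries as independent, and for a single library it would be wider. The highest member reached 0.784%, and the highest cell of the rest 37.4%. These 9 cells are called cells of other lineages below, and the tests of genes and lists against the rest are also given without them. Within the members, cells 17 and 21 of WT 2 had 9.57% and 13.0% of their UMIs in Jchain, the joining chain of secreted antibodies, while the median of the other 56 members was 12.3 CPM. Every other member of WT 2 also held some Jchain, at 0.00856% to 0.0571% of its UMIs, and many members of the other libraries held none. The same pair carried Mzb1 at 2422 and 1203 CPM and Tnfrsf17 at 1495 and 1079 CPM, genes of antibody-secreting plasma cells whose median in the other members was 0. Their shares of immediate early genes, 1.11% and 2.05%, lay inside the range of the other members. The barcode of the first of these cells held 16, 9 and 68 Jchain UMIs in the other libraries, against 5057 in WT 2.

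The selecting share ran from 0.654% to 3.37% of UMIs in members and from 0.0281% to 0.625% in the rest. The pooled median, 0.639%, cut a continuous range and not a separate type of cell. The 3 members nearest to it were at 0.654%, 0.659% and 0.669%, the 3 cells just outside were at 0.625%, 0.583% and 0.580%, and 8 cells lay within 10% of it. Library medians in the members were 1.41%, 1.39%, 1.08% and 1.22% in Mat KO 1, Mat KO 2, WT 1 and WT 2, and library medians in the rest were 0.307%, 0.218%, 0.461% and 0.365%. The cut set the lower end of the members' range in every library. The highest members reached 3.37%, 2.09%, 2.60% and 2.06% in Mat KO 1, Mat KO 2, WT 1 and WT 2, as the plot of each cell's share shows.

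**Figure D1:**
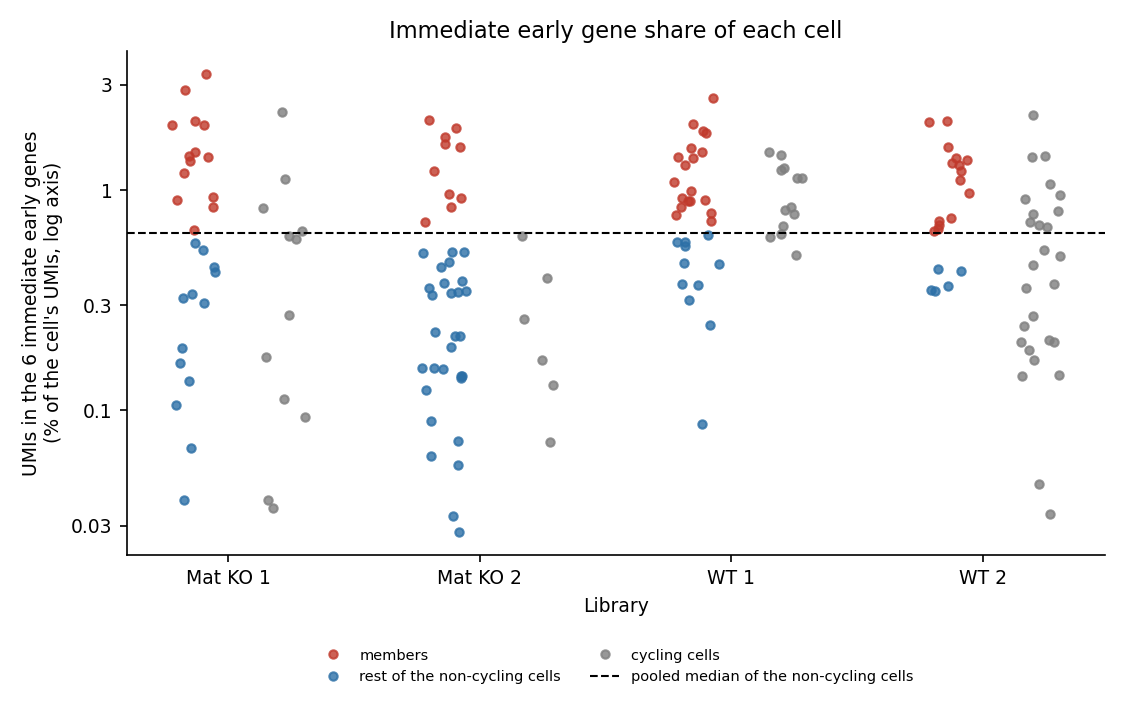
Share of UMIs in the 6 selecting genes (percent, log axis) for each member, each of the other non-cycling cells and each cycling cell, by library; the dashed line is the pooled median of the non-cycling cells at 0.639%. Points pass from blue to red at the line with no gap, Mat KO 2 has 29 cells below it and 10 above, and WT 2 has 5 below and 15 above.

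The values of the 6 selecting genes are a description, since they chose the cells. Fos was the largest of them. It gave 7143, 7479, 7444 and 4655 CPM in the members of Mat KO 1, Mat KO 2, WT 1 and WT 2, and 590, 1037, 2314 and 1134 CPM in the rest. It made up 48.5% of the members' UMIs in the 6 genes, and every member had at least 799 CPM. Jun gave 4235, 3456, 2475 and 2411 CPM in members and 480, 325, 607 and 1020 CPM in the rest, and made up 21.8%. Dusp1 gave 1506, 1002, 1212 and 1146 CPM in members and 227, 88.4, 359 and 501 CPM in the rest. For these 3 genes the members of every library were above the rest of every library.

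Egr1 gave 1646, 1303, 1050 and 943 CPM in members and 229, 241, 543 and 215 CPM in the rest. Ier2 was at 865 to 986 CPM in members and at 286 to 475 CPM in the rest. Junb was the weakest of the 6 at the cut: it gave 601, 1315, 601 and 552 CPM in members and 473, 318, 440 and 603 CPM in the rest, so the classes overlapped and WT 2 had slightly more in the rest. Within the members the 6 genes followed each other loosely from cell to cell. Over 58 cells the Spearman coefficient of log CPM was 0.43 for Jun with Dusp1 and 0.40 for Fos with Dusp1, and between -0.05 and 0.28 for the other 13 pairs. These coefficients carry no test, and cells of a library share its depth and handling.

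Ccl4 and Gem are the markers of the label that the selection did not use. Ccl4, a chemokine, gave 207, 54.8, 313 and 307 CPM in members and 124, 50.2, 464 and 23.9 CPM in the rest. Members were higher in 3 of 4 libraries and the classes overlapped (log2 fold change 0.72, SE 0.52, adjusted p = 0.945, edgeR's quasi-likelihood test with library as a block), and the fold change was 0.66 without the cells of other lineages. Gem, a small GTP-binding protein induced early after stimulation, gave 389, 290, 239 and 117 CPM in members and 91.2, 17.1, 231 and 179 CPM in the rest. It was higher in 3 of 4 libraries (log2 fold change 1.24, SE 0.59, adjusted p = 0.779), and at 1.03 without those cells. Neither marker passed, so the label does not rest on Ccl4 and Gem. It describes the selecting genes, which chose the cells and so cannot check it. Of the early genes outside the selection, Zfp36, Ppp1r15a and Dusp2 rose, while Nr4a1, Fosb and Klf4 did not pass, as given below. A single cell held 54.4% of the Ccl4 UMIs of WT 2, and that cell was a member.

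Outside the selection 5 genes rose in the members and 38 fell, of 6473 tested, which is 0.0772% higher and 0.587% lower. Zfp36, Ppp1r15a and Dusp2 among the 5 are themselves early response genes, and 10 of the 38 belong to the list of granulocyte and monocyte markers. Zfp36, the protein tristetraprolin that sends AU-rich mRNAs to decay (chr7:28376784-28379228, mm10), gave 1287, 1143, 1217 and 793 CPM in members and 328, 284, 442 and 370 CPM in the rest. Members of every library were above the rest of every library (log2 fold change 1.60, SE 0.25, adjusted p = 0.000264). Without the cells of other lineages it was 1.67 (adjusted p = 0.000142), and it passed under every alternative run.

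Ppp1r15a, the phosphatase subunit GADD34 that restores translation after stress (chr7:45522917-45526268), gave 863, 685, 779 and 468 CPM in members and 281, 258, 270 and 215 CPM in the rest, with no overlap (log2 fold change 1.38, SE 0.28, adjusted p = 0.00912). Dusp2, a nuclear phosphatase of MAP kinases (chr2:127336159-127338377), gave 809, 595, 623 and 538 CPM against 192, 266, 242 and 257 CPM, also without overlap (1.38, SE 0.30, adjusted p = 0.0160). Both encode feedback regulators, but of different responses: Ppp1r15a acts on translation after stress, and Dusp2 on the MAP kinases upstream of AP-1. Ppp1r15a did not pass without Mat KO 2 (adjusted p = 0.0682), without WT 1 (0.0527) or with the cut at each library's own median (0.0615). Dusp2 did not pass with any 1 of the 4 libraries left out (adjusted p = 0.05003 to 0.193).

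Ccnt1, cyclin T1 of the transcription elongation factor P-TEFb (chr15:98538690-98567736), gave 523, 493, 259 and 214 CPM in members and 152, 194, 91.7 and 5.97 CPM in the rest (1.95, SE 0.44, adjusted p = 0.0227). The lncRNA 2810013P06Rik (chr8:123042575-123044602) gave 446, 43.0, 181 and 280 CPM in members and 4.68, 18.1, 29.3 and 23.9 CPM in the rest (3.21, SE 0.66, adjusted p = 0.00971). Neither gene overlapped between the classes, but 2810013P06Rik was seen in only 34 of 58 members, and cell 16 of Mat KO 1 held 23.2% of the members' UMIs of the gene. Without the cells of other lineages Dusp2 was at 1.17 (adjusted p = 0.0943) and Ccnt1 at 1.82 (adjusted p = 0.0555), so both missed the threshold while keeping their direction. The lncRNA did not pass without Mat KO 1 (adjusted p = 0.206) or WT 2 (0.225), and Ccnt1 did not pass without Mat KO 2 (0.0876) or WT 2 (0.128). When each gene's leading cell was left out, the lncRNA passed (adjusted p = 0.0301) and Ccnt1 did not (0.335). Ccnt1 also did not pass with thinned cells (0.138) or without the library block (0.335). Neither passed with the cut at each library's median (0.334 for the lncRNA and 0.872 for Ccnt1). Leaving out Mat KO 2 or WT 2 left 2 genes higher instead of 5. In members and rest together, 4.54% of all genes tested did not overlap between the classes in either direction.

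**Figure D2:**
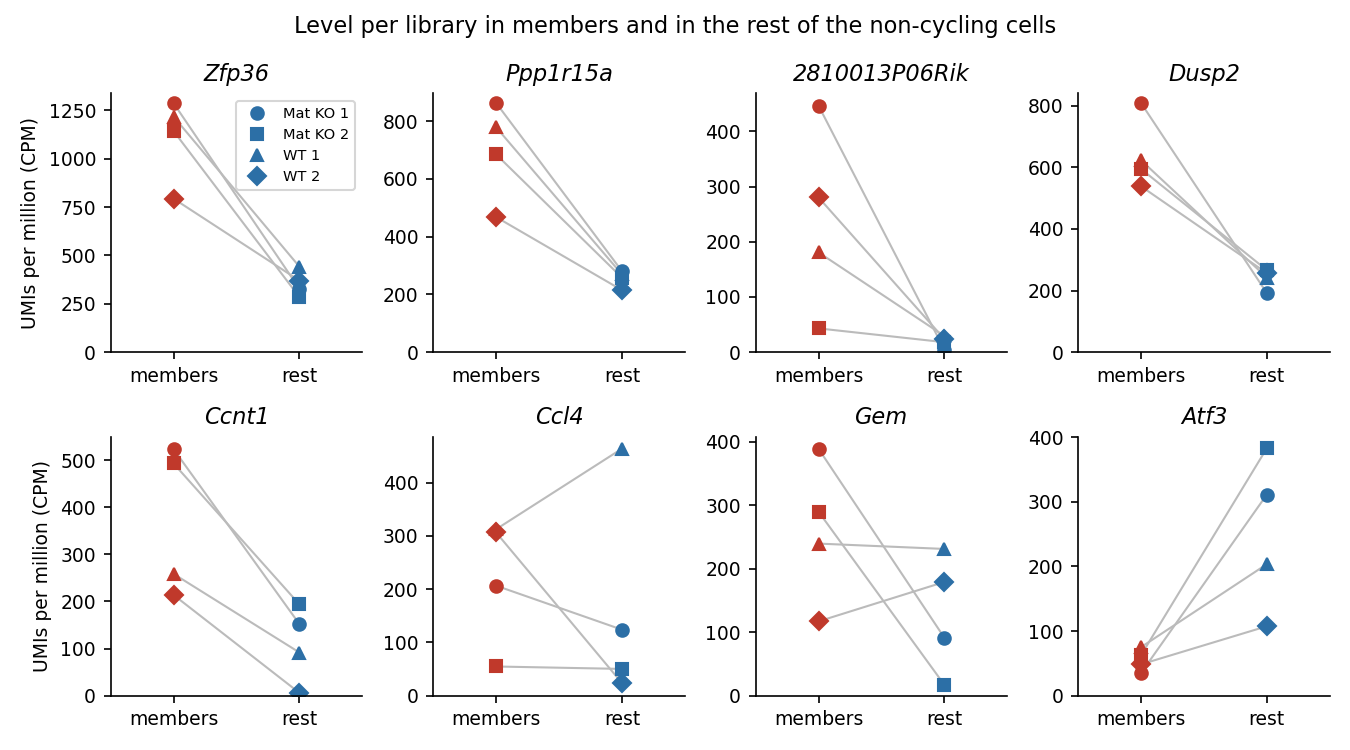
CPM of the 5 genes that rose in members, of the markers Ccl4 and Gem, and of Atf3, which fell, with a point for each library's members (red) and rest (blue) and a line joining the same library. The first 5 panels show no overlap between the classes, the panels of Ccl4 and Gem do, and in Atf3 all 4 lines go up towards the rest.

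Early genes beyond the 6 did not move as a block. The list of other early transcription factors had 20 of 25 members tested, of which 13 were higher and 7 lower with a median log2 fold change of 0.16 against 0.07 over all genes tested, and none passed. With the cells of other lineages left out 11 of 20 were higher, with a median of 0.06. Nr4a1, an orphan nuclear receptor and a standard early gene, gave 1831, 2610, 2185 and 1949 CPM in members and 1514, 1742, 2119 and 3067 CPM in the rest (log2 fold change 0.02, SE 0.18). Fosb, the AP-1 subunit closest to Fos, gave 2878, 2747, 1618 and 1221 CPM in members and 2092, 2140, 1837 and 1534 CPM in the rest (0.04, SE 0.17). Both genes were abundant and overlapped fully between the classes, and Klf4, another early transcription factor, was likewise at -0.09 (SE 0.31). Without the cells of other lineages Nr4a1 was at -0.16, Fosb at -0.17 and Klf4 at -0.29, and none passed, so the first pair changed sign.

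Of the 8 other AP-1 subunits tested, 4 were higher and 4 lower, with a median of -0.09, and 1 passed. That gene was Atf3, a stress-induced partner of Jun, which fell. It gave 35.0, 62.6, 75.0 and 48.5 CPM in members and 311, 383, 204 and 107 CPM in the rest, with no overlap (-2.12, SE 0.49, adjusted p = 0.0311). Without the cells of other lineages it was at -1.96 and missed the threshold (adjusted p = 0.217). The call was also lost without Mat KO 1 (0.324) and without Mat KO 2 (0.356). Jund, the AP-1 subunit with the steadiest expression, gave 1180, 1088, 725 and 645 CPM in members and 606, 619, 530 and 382 CPM in the rest, with no overlap and no pass (0.70, SE 0.24, adjusted p = 0.344), and was at 0.56 without those cells.

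The inhibitors were mixed. Of 10 MAP kinase phosphatases and feedback inhibitors tested, 4 were higher and 6 lower (median -0.49), and Dusp2 alone passed. Of 8 genes of mRNA decay and growth arrest, 7 were higher (median 0.47), and Zfp36 alone passed. Of 11 NF-kB pathway genes, 5 were higher and 6 lower (median -0.37), and none passed. Nfkbid, a nuclear inhibitor of NF-kB, was the member of that list closest to the selecting share: it gave 469, 650, 493 and 299 CPM in members and 215, 70.3, 295 and 233 CPM in the rest, with no overlap (1.27, SE 0.40, adjusted p = 0.284). When those 9 cells were left out Nfkbid was at 1.11, none of the 10 MAP kinase phosphatases and inhibitors passed (median -0.31), Zfp36 alone passed in the decay list, and 4 of 10 NF-kB genes tested were higher (median -0.51).

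Among 23 stress-induced genes tested, 16 were higher and 7 lower (median 0.24). Ppp1r15a rose, and Bcl10 and Cdkn1a fell. Cdkn1a, the cell cycle inhibitor p21, gave 221, 391, 233 and 250 CPM in members and 779, 1145, 589 and 286 CPM in the rest. Members were lower in every library, although WT 2 in the rest lay inside the members' range (-1.28, SE 0.30, adjusted p = 0.0369). Klf13, a Krüppel-like transcription factor, gave 233, 207, 165 and 255 CPM in members and 622, 816, 433 and 448 CPM in the rest (-1.44, SE 0.31, adjusted p = 0.0140). Both also fell without the cells of other lineages, Cdkn1a by 1.40 (adjusted p = 0.0182) and Klf13 by 1.48 (adjusted p = 0.0130). When each gene's leading cell was left out as well, Cdkn1a did not pass (adjusted p = 0.193) and Klf13 did (0.00984). Cdkn1a also did not pass without Mat KO 1 (0.313), Mat KO 2 (0.382) or WT 1 (0.123). Klf13 did not pass without Mat KO 1 (0.0617) or Mat KO 2 (0.231). In the stress list 17 of 24 were higher without the cells of other lineages, and Ppp1r15a and Txnip rose.

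Of 12 granulocyte and monocyte markers tested, 10 fell, with a median of -4.15. S100a8, a calcium-binding protein that fills neutrophils, gave 1714, 685, 510 and 222 CPM in members and 22781, 1812, 12570 and 22689 CPM in the rest (-4.19, SE 0.45, adjusted p = 4.46e-07). Tyrobp, a signalling adaptor of myeloid cells, gave 31.5, 15.7, 14.4 and 63.2 CPM in members and 1137, 818, 191 and 1205 CPM in the rest (-4.68, SE 0.37, adjusted p = 1.49e-09). Without the 9 cells, 9 of the 10 markers tested were higher in members with a median of 0.39 and none passed, and S100a8 was at 0.24 (adjusted p = 0.998). Those cells were set aside by their share of most of these same markers. The loss of the fall without them thus follows from that choice and is no separate check. The summed list then took 0.114% to 0.362% of UMIs in the rest and 0.151% to 0.376% in members, with Ctsg at 0 in both.

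Without those cells 6 genes rose and 5 fell, of 6278 tested (0.0956% and 0.0796%). Of the 43 genes called with all cells, 5 were also called here: Zfp36, Ppp1r15a and 2810013P06Rik rose, and Cdkn1a and Klf13 fell. The other 6 calls, named after their values were seen, were Txnip, Ifitm3 and Malat1, which rose, and Ctla2a, Map9 and Rgcc, which fell. Txnip, a thioredoxin-binding brake on glucose uptake, rose by 1.91 (adjusted p = 0.0112). Ifitm3, an interferon-induced membrane protein that HSC express constitutively, rose by 1.04 (adjusted p = 0.0130), and Malat1, a nuclear lncRNA, rose by 0.18 (adjusted p = 0.0333). When each gene's leading cell was also left out, 5 genes rose and 2 fell.

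**Figure D3:**
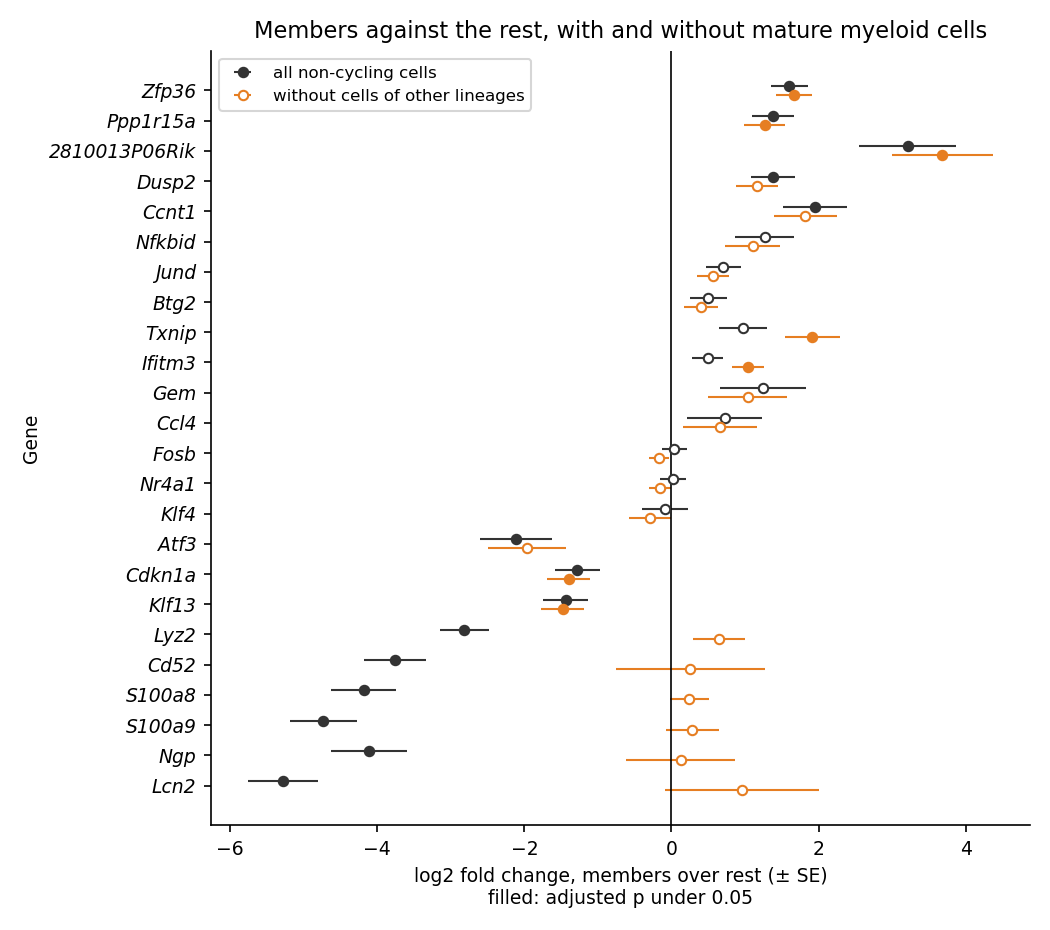
Log2 fold change of members over the rest (± SE) for 24 genes with all non-cycling cells (black) and without the 9 cells of other lineages (orange); filled points passed at an adjusted p under 0.05. Of the 5 genes that rose with all cells, Zfp36, Ppp1r15a and 2810013P06Rik passed in both and Dusp2 and Ccnt1 with all cells only, and the 6 genes at the bottom moved from -2.82 or below to values above 0. Those at the bottom other than Cd52 are in the marker list by which the 9 cells were set aside.

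Long-term HSC genes, which mark the most quiescent and self-renewing stem cells, leaned towards the members. Of 35 tested of 44 in the list, 29 were higher and 6 lower, with a median log2 fold change of 0.64 against 0.07 over all genes tested, and none passed with all cells. Of the 35, 10 were higher in members in all 4 libraries, where 9.05% of all genes tested were, and 1 was lower in all 4. No overlap between the classes, in either direction, was seen for 7 of the 35, against 4.54% of all genes tested. Together the list took 0.970%, 1.03%, 0.950% and 1.01% of UMIs in the members of Mat KO 1, Mat KO 2, WT 1 and WT 2, and 0.548%, 0.709%, 0.739% and 0.688% in the rest. Without the cells of other lineages the rest was at 0.701%, 0.735%, 0.792% and 0.707%, so the members of every library stayed above the rest of every library. The same count of 29 of 35 were then higher, the median was 0.50 against 0.09 over all genes, and Ifitm3 passed.

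Hlf, a transcription factor of HSC, gave 823, 853, 844 and 684 CPM in members and 545, 455, 623 and 340 CPM in the rest (0.69, SE 0.25, adjusted p = 0.454). Pdzk1ip1, a small membrane protein used as an HSC reporter, gave 264, 348, 192 and 269 CPM in members and 44.5, 176, 150 and 59.7 CPM in the rest (1.43, SE 0.45, adjusted p = 0.275). Neither gene overlapped between the classes, and neither passed. Their values were 0.47 and 1.30 without the cells of other lineages.

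The lists of other cell types were mixed, and granulocyte and monocyte markers are given above. Of 11 stroma and endothelium markers, 8 were at 0 in members and the same number in the rest, Col1a1, Pdgfra and Cdh5 among them, and the list took at most 0.00635% of members' UMIs. T and NK markers took at most 0.00727% in members, with Cd3e and Cd8a at 0, and 0.00165% to 0.0302% in the rest. Megakaryocyte markers took 0.0107% to 0.0415% in members and 0.00795% to 0.0398% in the rest. Multipotent progenitor genes took 0.0896% to 0.140% in members and 0.122% to 0.206% in the rest, so the classes overlapped.

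Over the 116 non-cycling cells the genes outside the selection with the highest pooled Spearman coefficient with the selecting share, among 4985 detected in at least 25% of the cells, were Zfp36 with 0.70, Ppp1r15a with 0.59, Nfkbid with 0.58, and Gem and Klf2 with 0.44 each. B2m, Dusp2 and Jund followed at 0.43, 0.42 and 0.42, and the lowest were Ski at -0.46 and Klf13 at -0.45. These coefficients describe cells that share libraries and differ in depth, and they carry no test. Within single libraries Zfp36 ran from 0.43 to 0.71 and Ppp1r15a from 0.34 to 0.70. In WT 2 Nfkbid was at 0.036, Klf2 at -0.043 and Gem at -0.094, so these 3 genes did not follow the share in every library.

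The cycling cells took no part in setting the median, so splitting them at the same value gave a comparison in cells the choice of members had not used. Above it lay 4 of 12, 0 of 6, 10 of 13 and 11 of 27 cycling cells in Mat KO 1, Mat KO 2, WT 1 and WT 2, so Mat KO 2 could not enter. By edgeR's quasi-likelihood test no gene of 6735 rose and 4 fell (0.0594%, namely Camp, Ngp, S100a8 and S100a9), with 31 higher and 72 lower at an unadjusted p under 0.05. The 5 genes that rose in the members were all higher here, with a median of 1.41. Ppp1r15a was at 2.55 (unadjusted p = 0.000489) and Zfp36 at 1.41 (unadjusted p = 0.0171), and neither passed after adjustment. Of the 38 genes that fell in the members, 29 were tested here and 26 were lower. In all, 7 cycling cells of Mat KO 1 and 1 each of WT 1 and WT 2 passed the limit for mature myeloid genes, and their part in these values was not tested. Long-term HSC genes were higher above the cut in 25 of 34 tested, with a median of 0.61. Over all 6735 genes tested here 3673 were higher and 3062 lower, with a median of 0.10.

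Members made up 51.9% (14 of 27) and 25.6% (10 of 39) of the non-cycling cells in the Mat KO libraries and 63.3% (19 of 30) and 75.0% (15 of 20) in the WT libraries. The exact binomial 95% intervals, which cover counting error only, were 31.9% to 71.3%, 13.0% to 42.1%, 43.9% to 80.1% and 50.9% to 91.3%. Both Mat KO libraries lay below both WT libraries. The Mat KO mean minus the WT mean was -30.4 percentage points, and the exact two-sided permutation test gave p = 0.333, the smallest that 2 libraries against 2 allow. With only the 39 cells of highest share as the class, the shares were 40.7% and 17.9% against 36.7% and 50.0%, and the genotypes overlapped (-14.0 points, exact permutation p = 0.667). With thinned cells they were 58.3% and 25.0% against 65.5% and 57.9%, and overlapped again (-20.0 points, exact permutation p = 0.667). Every library held cells with more Xist than Y-linked UMIs and cells with more Y-linked UMIs. Among the first the members' shares were 33.3% (4 of 12) and 20.0% (4 of 20) for Mat KO against 63.6% (7 of 11) and 58.3% (7 of 12) for WT. Among cells with more Y-linked UMIs they were 64.3% (9 of 14) and 27.8% (5 of 18) against 63.2% (12 of 19) and 100% (7 of 7), and the genotypes overlapped.

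Within the members, Mat KO and WT differed in 1 of 7788 genes tested, or 0.0128%, by edgeR's quasi-likelihood test: Rn45s rose and none fell. At an unadjusted p under 0.05, 170 genes were higher and 218 lower. With DESeq2 the calls were 13 higher and 0 lower. The count turned on single libraries: 23 were higher and 8 lower without Mat KO 1, 9 and 5 without Mat KO 2, 3 and 5 without WT 1, and 2 and 0 without WT 2. Rn45s, the precursor of ribosomal RNA, gave 75722 and 107710 CPM in the Mat KO members and 47946 and 56008 CPM in the WT members (log2 fold change 0.84, SE 0.11, adjusted p = 0.0122). The genotypes did not overlap, which held for 35.1% of all genes tested. The rest showed 79832 and 90853 CPM in the knockout libraries against 48287 and 59975 CPM (0.69, adjusted p = 0.750), so the order of the genotypes was the same in both classes, and the test of the difference between the classes gave 0.17 (adjusted p = 1.00). Ribosomal RNA genes are present in many copies and their transcripts lack a poly(A) tail, and the sources used here do not say how such reads were counted.

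The levels of the 6 selecting genes chose the members, so their genotype values are a description with no test. Their median log2 fold change in the members was 0.43. It depended on the cut: with each library cut at its own median Fos was at -0.28, Jun at -0.041, Dusp1 at -0.62 and Ier2 at -0.21, while Junb was at 0.70 and Egr1 at 0.43. Fosb, which the selection did not use, gave 2878 and 2747 CPM in Mat KO members and 1618 and 1221 CPM in WT members (1.00, SE 0.21, adjusted p = 0.428). Id1, an inhibitor of helix-loop-helix factors, gave 539 and 650 against 119 and 164 CPM (2.08, SE 0.40, adjusted p = 0.338). Neither passed, although their libraries did not overlap.

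Jchain had the lowest fold change of the genes named for this comparison, with 24.5 and 39.1 CPM in Mat KO members against 15.4 and 8803 CPM in WT members (-7.14, adjusted p = 0.428). The value rests mostly on cells 17 and 21 of WT 2: without them it was -1.69 (adjusted p = 1.00). Hspa1a, an inducible heat shock protein, gave 12.3 and 7.83 against 14.4 and 381 CPM (-4.20, adjusted p = 0.947), with 85.2% of its UMIs in cell 17, and was at -0.76 without the pair. Atp5j2, a subunit of ATP synthase, gave 109 and 82.2 against 302 and 409 CPM (-1.87, adjusted p = 0.947), and was at -1.88 without the pair. Anapc13, of the anaphase-promoting complex, gave 31.5 and 58.7 against 208 and 232 CPM (-2.30, adjusted p = 0.947). Ccdc122 was at 159 and 82.2 against 0 and 3.16 CPM (adjusted p = 0.428), with 63.5% of its UMIs in 1 member.

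Cytosolic ribosomal protein genes leaned lower in Mat KO members, 68 of 74 tested, with a median of -0.19 against -0.05 over all genes tested, and none passed. In the rest the same number, 68 of 74, were lower, with a median of -0.20. Nuclear genes of the respiratory chain were lower in 53 of 75 in members (median -0.31) and in 51 of 75 in the rest (median -0.40). The medians of both lists thus had the same sign in members and rest, and the sizes were not tested against each other. Long-term HSC genes were split in the members, 22 higher and 17 lower (median 0.14).

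In the rest, 2 of 6398 genes rose in Mat KO (0.0313%, the interferon-induced Ifit1 and Cxcl10) and none fell. The test of the difference between the genotype effects in members and rest called 4 of 6473 genes higher (0.0618%) and 5 lower (0.0772%), all named after their values were seen. S100a8, S100a9, Retnlg and Lins were the first and Ifit1, Rsad2, Lyz2, Ly6c2 and Slpi the second. None of the 6 selecting genes could be tested for this, since they were left out of fits with the rest. Without the cells of other lineages 1 of the 9, Ifit1, still passed, but it was not called lower when each gene's leading cell was left out.

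**Figure D4:**
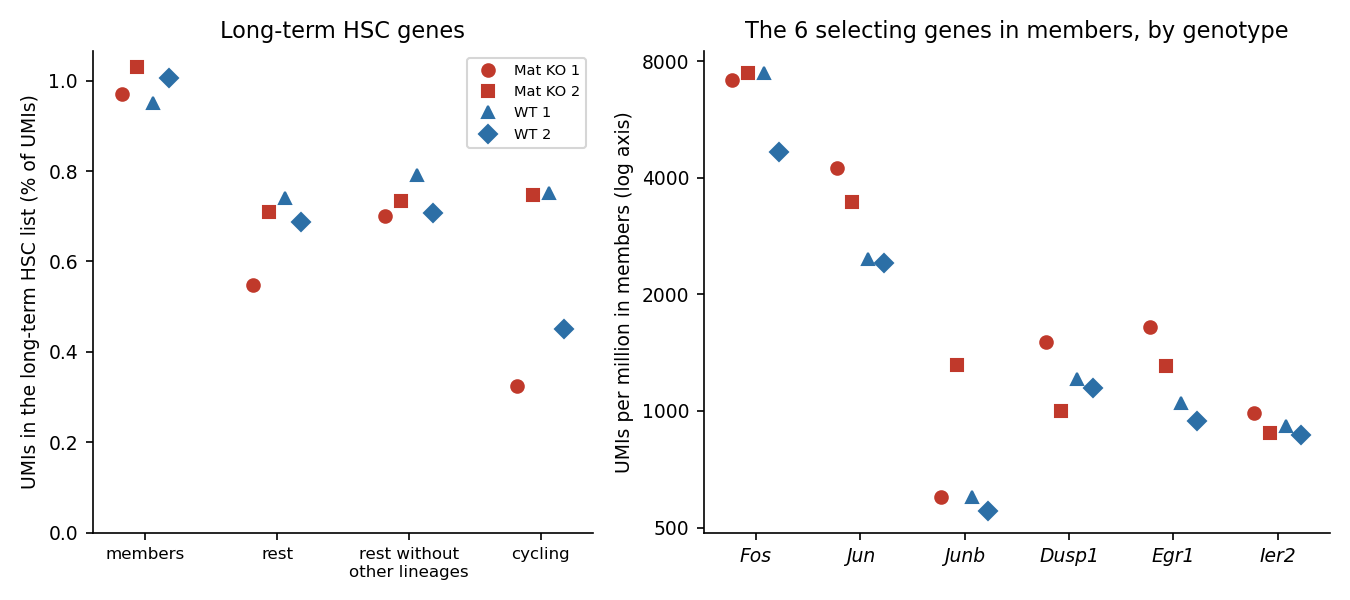
Left, share of UMIs in the long-term HSC list (percent) per library in members, the rest, the rest without cells of other lineages, and cycling cells; the members of all 4 libraries lie at or above 0.950% and no other point passes 0.792%. Right, CPM of the 6 selecting genes in the members on a log axis, Mat KO red and WT blue, a description of the genes that chose the cells, with Fos the highest in all 4 libraries.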

How the data were processed

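The authors deposited 1 table of UMI counts per library, genes by barcodes, without normalization. HTSeq, TopHat2 2.0.12 and mm10 are listed in the submitters' processing notes, with no role stated. Spike-ins stayed out of totals and tests. Cells are not replicates, so counts were summed per library and class. The sums were tested with edgeR 4.0.16 (quasi-likelihood test, TMM, filterByExpr, R 4.3.3) and Benjamini-Hochberg adjustment at 0.05 over all genes tested, the 24 selecting genes left out of comparisons with the rest. Members against the rest had library as a block, and genotype within members had genotype alone. The code was tested on simulated counts. DESeq2 1.42.0, RLE factors, no filter, thinned cells, other cuts, each gene without its leading cell, and each library left out were alternatives. Leaving out cells with at least 1% of UMIs in Jchain, and 3 further combinations, were chosen after seeing the data. No doublet caller was run, since cells were picked singly.

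Members, lists and alternatives were chosen with earlier results of these data known. Named genes were up to 12 of smallest p per direction that passed (6 if fewer passed, 4 for genotype), the 6 selecting genes, Ccl4 and Gem, the 3 leading genes of lists with a call, and the 8 genes of highest Spearman coefficient with the selecting share. Other genes were named as members of a list or after their values were seen. Some genes that the rule names are not reported here. Gene positions are from GENCODE vM21 on mm10, and promoters from RefSeq on GRCm38.p6, where 17 of 19 symbols looked up could be used.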

Additional observations from a re-analysis of the deposited data

Results flagged for a closer look

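A total of 9 genes had a Mat KO effect that differed between the members and the rest by edgeR's interaction test, of 6473 tested (0.139%), and all are named after their values were seen. S100a8 differed by 3.09 on the log2 scale (1714 and 685 CPM in Mat KO members, 510 and 222 CPM in WT members). S100a9 differed by 2.73, Retnlg by 3.38 and Lyz2 by -2.14, and without the cells of other lineages S100a8, S100a9 and Lyz2 did not pass (1.11, 0.87 and -1.16) and Retnlg was not tested. The cells left out were set aside by markers that include these genes. Ifit1, an interferon-induced gene, differed by -12.00, with 342 and 363 CPM in the Mat KO rest, 0 in the WT rest, and 1.75 to 21.1 CPM in members. Rsad2, also interferon-induced, differed by -8.42, with 498 and 102 CPM in the Mat KO rest and 1.83 and 0 CPM in the WT rest. Lins differed by 14.27, with 22.8 and 35.2 CPM in Mat KO members against 0 in WT members, and UMIs in only 3 members. Slpi differed by -5.16 and Ly6c2 by -4.70, with 76.9% and 82.8% of the members' UMIs in cell 17 of WT 2. Without the 2 cells rich in Jchain these were -1.09 and -2.77 and did not pass. Fold changes of genes at 0 in a group depend on the prior count and are no bound. Without each gene's leading cell none of Ifit1, Rsad2, Lyz2, Ly6c2 and Slpi was called lower. Beyond these refits the part of mature myeloid cells and of single cells in these values was not tested.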

How the results depend on the processing

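Members against the rest gave 5 genes higher and 38 lower. The counts were 17 and 66 with DESeq2, 2 and 16 with thinned cells, and 1 and 16 with the cut at each library's median. No filter gave 87 lower, leaving out each gene's leading cell 13, leaving out cells of other lineages 5, and both together 2. Leaving out 1 library gave 2 to 7 higher and 30 to 55 lower. Without cells of other lineages Lcn2 turned to 0.96, S100a9 to 0.29, S100a8 to 0.24, Cd52 to 0.26, Lyz2 to 0.64 and Ngp to 0.12, and with leading cells also out Lcn2 was at 0.86, S100a9 at 0.23, S100a8 at 0.23, Cd52 at 1.54, Lyz2 at 0.50 and Tmsb4x at 0.23. Of these, Lcn2, S100a9, S100a8, Lyz2 and Ngp are in the marker list by which those cells were set aside, so their turn follows from that choice.

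Mat KO against WT within the members gave 1 higher and 0 lower. It gave 13 higher with DESeq2, 7 higher and 4 lower with no filter, and 0 higher with the cut at each library's median, with thinned cells, with the cells of outermost share and without leading cells. Leaving out 1 library gave 2 to 23 higher and 0 to 8 lower. The deviations of same-numbered libraries had a Pearson coefficient of -0.02 over genes. With 2 libraries a genotype, this value cannot decide whether equal numbers pair libraries, and the labels do not say so. With a replicate block the counts were 6 higher and 1 lower. With 1 library left out, Jchain ran from -8.14 to 1.03, Fos from -0.026 to 0.68 and Dusp1 from -0.20 to 0.33. With the cut at each library's median Fos was at -0.28, Jun at -0.041, Dusp1 at -0.62 and Ier2 at -0.21. Dusp1 was at -0.30 with thinned cells, at -0.24 with the cells of outermost share, where Ier2 was at -0.044, and at -0.66 without its leading cell.

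The difference of the genotype effect gave 4 higher and 5 lower. It gave 1 and 2 with DESeq2, 0 and 0 with thinned cells, 0 and 1 without cells of other lineages, 3 lower without cells rich in Jchain and 0 lower without leading cells, where Retnlg turned to -0.46. Leaving out 1 library gave 1 to 9 higher and 0 to 8 lower. The causes of these changes were not tested, beyond the smaller number of genes tested with thinned cells (1909) and the cells left out. The mean difference in the share of members stayed negative under every alternative run, from -43.5 to -14.0 percentage points. The libraries of the genotypes overlapped, however, with only the cells of highest share, with thinned cells and among cells with more Y-linked UMIs. With 2 libraries a genotype and 5 to 29 cells of the rest in a library, depth and cell number limit what could pass.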
